A study of Mus musculus with 45 samples.

Results

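Retinoid metabolism and binding genes encode the proteins that take up, make, bind and break down retinoic acid (RA), and 9 of them were followed here by their symbols among the 33924 genes of each RNA-seq table: Stra6, Rdh10, Dhrs3, Aldh1a2, Aldh1a3, Crabp1, Crabp2, Cyp26a1 and Cyp26b1. All 9 were found in both tables and varied among the samples. The RNA came from feeder-free mouse embryonic stem cells (ESCs) of strain 129 in which the long non-coding RNA gene 5430416N02Rik had been replaced by a cassette. In ΔG cells a GFP and puromycin resistance cassette took the place of the gene body, and in ΔPG cells a puromycin resistance cassette driven by the Pgk promoter took the place of the promoter and the gene body. Each line was measured as heterozygous (het) and homozygous (hom) cells, and each of these after 48 h with the solvent DMSO (called ES) or after 48 h with 2 µM RA (called RA), which gives 8 groups of 3 samples. All groups therefore carry at least 1 replaced allele, and unedited cells are not among them. The labels do not say which clone or clones gave the samples, so a difference between genotypes and a difference between clones cannot be told apart. The values are regularized log (rlog) values, normalized counts on a log2 scale that is compressed for weakly expressed genes, and the 2 lines were normalized in separate tables, so tests were made only within a line.

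Cells obtain RA from retinol in 2 oxidation steps. STRA6 is the membrane receptor that lets retinol in, RDH10 oxidizes retinol to retinal, DHRS3 turns retinal back into retinol, and ALDH1A2 and ALDH1A3 oxidize retinal to RA. CRABP1 and CRABP2 carry RA in the cytoplasm, CRABP2 passing it to the RA receptors in the nucleus, and CYP26A1 and CYP26B1 hydroxylate RA for removal. RA receptors pair with retinoid X receptors on direct repeats of a 6-base half-site, and Cyp26a1 is the textbook gene that they switch on.

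The promoter of Cyp26a1 is shown because this gene had the highest RA level of the 9 per kilobase and carries such a repeat next to its start. It is the 250 bases before the start of the gene model in NCBIM37, chr19:37772048-37772297, plus strand, with a direct repeat of half-sites spaced by 5 bases in capitals.
Cyp26a1 promoter: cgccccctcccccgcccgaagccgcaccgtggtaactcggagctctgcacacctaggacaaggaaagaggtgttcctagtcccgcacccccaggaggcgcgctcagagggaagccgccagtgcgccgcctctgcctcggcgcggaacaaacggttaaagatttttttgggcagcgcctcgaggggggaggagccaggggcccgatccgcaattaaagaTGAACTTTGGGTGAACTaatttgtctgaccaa
The repeat lies at bases -32 to -16 counted back from the gene start and reads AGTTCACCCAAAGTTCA on the minus strand. A second repeat with the same spacing lies at bases -1899 to -1883 of Cyp26a1 (chr19:37770399-37770415, plus strand). The only other match among the 9 genes was a repeat spaced by 2 bases at bases -1141 to -1128 of Crabp2 (chr3:87751447-87751460, plus strand). Both are given with 20 bases on each side and the repeat in capitals.
Cyp26a1 distal repeat: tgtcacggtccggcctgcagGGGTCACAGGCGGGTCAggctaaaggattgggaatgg
Crabp2 repeat: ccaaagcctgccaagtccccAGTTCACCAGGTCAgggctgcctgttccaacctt
The search covered the 2000 bases before each gene start, on both strands, for 2 half-sites (each AGGTCA or AGTTCA or GGGTCA or GGTTCA) in the same direction with 1, 2 or 5 bases between them, and the 3 matches do not overlap each other. Of 22367 protein-coding genes, 0.715% held a repeat spaced by 5, 2.25% one spaced by 2 and 1.42% one spaced by 1. A match is a description of letters and no evidence of binding, and the lack of one in the other 7 genes says only that these letters are not in that window.

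Before the members, the labels were checked. 5430416N02Rik was lower in hom than in het cells by -2.79 (ΔG ES), -2.75 (ΔG RA), -2.30 (ΔPG ES) and -1.81 (ΔPG RA) on the log2 scale, and the groups did not overlap. Of 14 markers of undifferentiated ESCs, 12 or 13 fell with RA in each genotype of each line and none rose, and their summed level went from 14.07 to 14.36 in ES samples to 10.96 to 11.09 in RA samples (log2). All 10 endoderm markers rose, and their summed level in RA was lower in hom cells (12 against 12.72 to 12.79 in ΔG, and 11.56 to 11.59 against 12.41 to 12.43 in ΔPG). The fibroblast list, led by collagen genes, rose from 5.31 to 5.85 to 8.67 to 9.66, with 8.67 to 8.83 in ΔG hom RA against 9.55 to 9.66 in ΔG het RA. Between these 2 groups only Col1a2 of its 7 genes passed the limits given below (-1.41). The neural list, 6 genes, was at 8.31 to 9.30 in ES and 9.31 to 9.83 in RA samples, and the 5 mesoderm genes at 5.42 to 6.05 and 5.80 to 6.43. Ranges given without a line pool the 2 tables. Single genes of these lists went opposite ways with RA. In each comparison 3 neural genes rose and Tubb3 fell (-1.56 to -0.60). Among the mesoderm genes Kdr rose (1.67 to 2.14), T fell in each comparison and Eomes fell in all but ΔG hom. Thy1 of the fibroblast list fell in ΔPG het (-0.67) and hom (-0.53), where 5 and 6 of the 7 rose. No defining marker of these lists was at 0. Trp53 differed between the ΔPG genotypes (7.05 against 4.02 in ES) and was low throughout ΔG (2.28 to 2.62). In bulk RNA, fewer cells of a type and less RNA per cell cannot be told apart, and the part that these shifts in cell state have in the values below was not tested.

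RA raised most of the retinoid genes. To be called, a gene needed a log2 difference over 0.5 in either direction and a p under 0.1 after Benjamini-Hochberg adjustment over all genes that varied (limma). In ΔG het cells 7 of the 9 were called higher with RA, against 17.7% of 22048 genes, and none lower (11.7% of all genes). The count was again 7 higher and 0 lower in ΔG hom cells (17.0% and 12.1% of all genes). In ΔPG het cells 8 were higher and 0 lower (18.0% and 13.6% of 21979 genes), and in ΔPG hom cells 7 and 0 (16.5% and 11.3%). Stra6, Rdh10, Dhrs3, Crabp1, Crabp2, Cyp26a1 and Cyp26b1 were the 7 in all 4 comparisons, and Aldh1a2 was the eighth in ΔPG het. Their ES and RA samples did not overlap in these comparisons. This is no further evidence beside the calls, and the share of all genes without overlap is not given here. The median difference of the 9 was 3.00 in ΔG het, 2.82 in ΔG hom, 1.98 in ΔPG het and 2.32 in ΔPG hom, beside 0.04, 0.02, 0.01 and 0.01 for all genes tested.

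**Figure D1:**
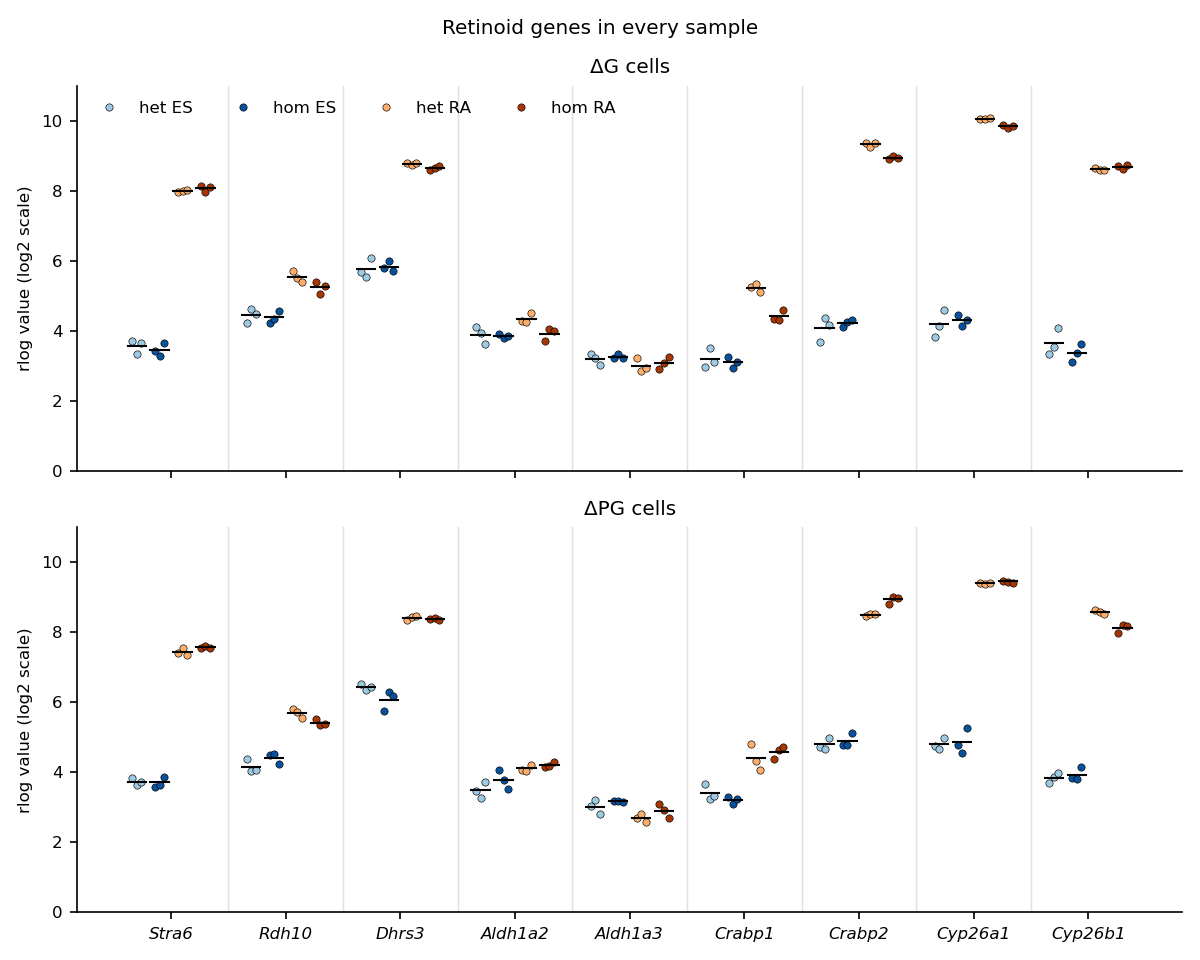
Each point is the rlog value (log2 scale) of 1 sample and each bar a group mean of 3 samples, for the 9 retinoid genes in ΔG (top) and ΔPG (bottom) cells. RA samples of Stra6, Dhrs3, Crabp2, Cyp26a1 and Cyp26b1 sit between 7.36 and 10.10, far above their ES samples, while Aldh1a2 and Aldh1a3 stay between 2.57 and 4.52.

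The 2 enzymes that remove RA were among the 3 retinoid genes with the largest rise in each of the 4 comparisons. Cyp26a1 (ENSMUSG00000024987.5, NCBIM37 chr19:37772298-37776018, plus strand) was at 3.84, 4.14 and 4.59 in the ΔG het ES samples and at 10.05, 10.05 and 10.10 with RA. In ΔG hom cells the values were 4.45, 4.16 and 4.31 in ES and 9.89, 9.79 and 9.87 in RA. The RA samples lay within 0.10 of each other in each genotype and more than 5 log2 units above every ES sample. The difference was 5.88 ± 0.141 (SE, n = 3 against 3, adjusted p = 1.13e-12) in het and 5.54 ± 0.0883 (adjusted p = 1.28e-18) in hom cells, and on the rlog scale these are folds of 58.8 and 46.6. Its rank was 3 from the highest of 22048 genes in each genotype. ΔPG het cells had 4.74, 4.67 and 4.99 in ES against 9.40, 9.38 and 9.41 in RA. ΔPG hom cells had 4.79, 4.56 and 5.28 against 9.47, 9.44 and 9.42. Both ΔPG differences, 4.60 ± 0.0799 (adjusted p = 1.15e-08) and 4.57 ± 0.142 (adjusted p = 4.57e-10), ranked 7 and 3 from the highest of 21979 genes. ES values of Cyp26a1 are low and rlog compresses low values, so these folds may understate the change, by an amount that cannot be read without counts.

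Cyp26b1 (ENSMUSG00000063415.5, chr6:84521938-84543740, minus strand) encodes the second RA hydroxylase and rose by 4.19 to 5.32 in the 4 comparisons. Its ΔG het samples were at 3.34, 3.55 and 4.10 in ES and 8.66, 8.61 and 8.60 in RA. The ΔG hom samples were at 3.12, 3.38 and 3.63 against 8.71, 8.63 and 8.75. RA values of the 2 genotypes overlapped in this line. The differences were 4.96 ± 0.151 (adjusted p = 1.02e-11) in het and 5.32 ± 0.120 (adjusted p = 1.53e-16) in hom cells. In ΔPG the RA samples split by genotype: het cells were at 8.65, 8.58 and 8.53, and hom cells at 7.97, 8.22 and 8.17. ES samples of ΔPG were at 3.70, 3.88 and 3.97 in het and 3.84, 3.80 and 4.14 in hom cells, with overlap. RA thus raised Cyp26b1 by 4.74 ± 0.0797 (adjusted p = 1.04e-08) in ΔPG het and 4.19 ± 0.112 (adjusted p = 1.48e-10) in ΔPG hom cells.

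**Figure D2:**
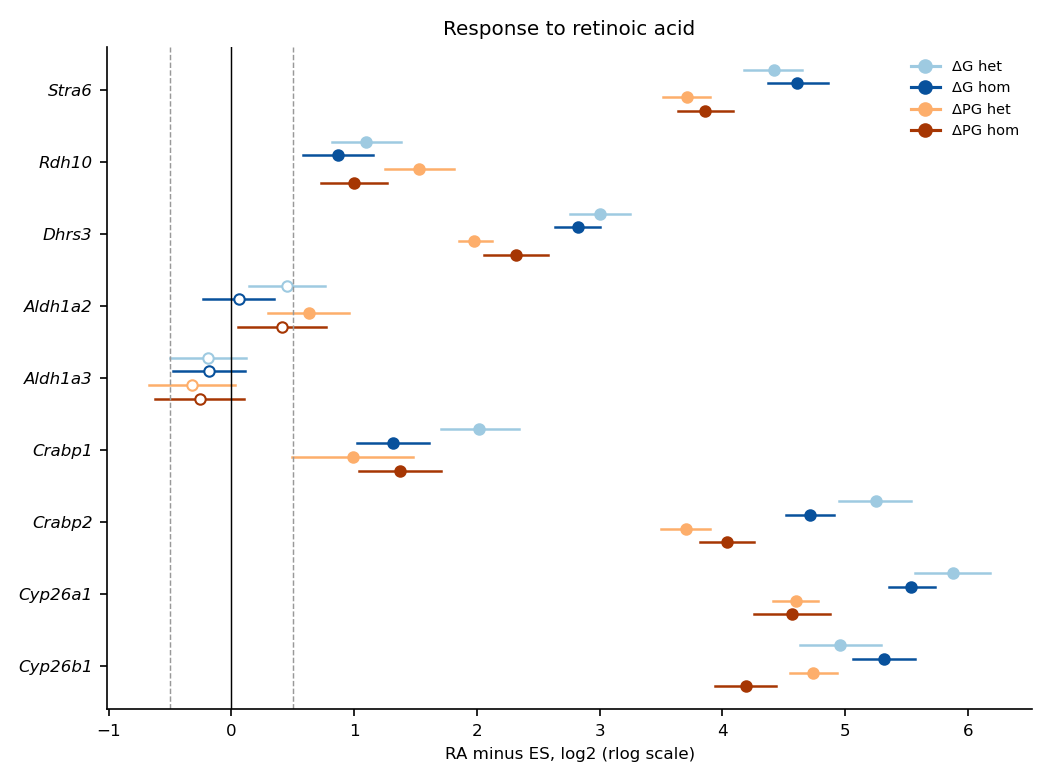
Difference between RA and ES samples (log2 on the rlog scale, horizontal axis) with its 95% confidence interval for the 9 genes in 4 comparisons of 3 against 3 samples. Filled points were called, open points were not, and dashed lines mark the limit of 0.5. Cyp26a1, Cyp26b1, Crabp2 and Stra6 lie between 3.70 and 5.88, and Aldh1a3 lies between -0.32 and -0.18.

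The RA-binding proteins differed in level and response. Crabp2 (ENSMUSG00000004885.5, chr3:87752588-87757298, plus strand) was at 3.70, 4.38 and 4.18 in ΔG het ES and 9.37, 9.27 and 9.36 in ΔG het RA. In ΔG hom cells it was at 4.13, 4.25 and 4.33 in ES and 8.91, 9.01 and 8.94 in RA, so each hom RA sample was below each het RA sample. The rise was 5.25 ± 0.136 (adjusted p = 2.36e-12) in het and 4.71 ± 0.0910 (adjusted p = 2.06e-17) in hom cells. ΔPG het cells had 4.73, 4.67 and 4.99 in ES and 8.47, 8.51 and 8.51 in RA. ΔPG hom cells had 4.79, 4.79 and 5.12 in ES and 8.82, 9.0 and 8.99 in RA. Here the order was the other way, with hom RA samples above het RA samples. The ΔPG differences were 3.70 ± 0.0851 (adjusted p = 4.50e-08) and 4.04 ± 0.0990 (adjusted p = 7.80e-11).

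Crabp1 (ENSMUSG00000032291.8, chr9:54612555-54620917, plus strand), the cytoplasmic RA-binding protein that is best known for holding RA outside the nucleus, rose less. ES samples of ΔG were at 2.99, 3.52 and 3.13 in het and 3.25, 2.96 and 3.13 in hom cells. RA samples were at 5.27, 5.34 and 5.11 in het and 4.35, 4.33 and 4.61 in hom cells. All RA samples were above all ES samples, and the genotypes separated only in RA. The rise was 2.02 ± 0.146 (adjusted p = 5.99e-08) in het and 1.32 ± 0.141 (adjusted p = 3.25e-07) in hom cells. In ΔPG the ES samples were at 3.67, 3.24 and 3.32 (het) and 3.29, 3.09 and 3.24 (hom), and the RA samples at 4.81, 4.31 and 4.08 (het) and 4.37, 4.65 and 4.71 (hom). The genotypes overlapped in both states, and the differences were 0.99 ± 0.211 (adjusted p = 0.00541) in het and 1.37 ± 0.152 (adjusted p = 1.54e-05) in hom cells. Per kilobase, Crabp2 exceeded Crabp1 by 0.15 to 0.97 log2 units in the means of the 4 ES groups and by 3.37 to 3.80 in the 4 RA groups.

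Stra6 (ENSMUSG00000032327.8, chr9:57911595-58001803, plus strand), the retinol receptor, went from the low end of the 9 genes to the middle. It was at 3.73, 3.35 and 3.65 in ΔG het ES and 7.97, 7.99 and 8.02 in ΔG het RA. ΔG hom samples were at 3.44, 3.30 and 3.66 against 8.14, 7.96 and 8.13. The genotypes overlapped in both states, and the rises were 4.42 ± 0.109 (adjusted p = 1.46e-12) and 4.61 ± 0.115 (adjusted p = 5.64e-16). In ΔPG het cells the values were 3.83, 3.64 and 3.71 in ES and 7.40, 7.55 and 7.36 in RA. ΔPG hom cells had 3.59, 3.65 and 3.87 in ES and 7.56, 7.60 and 7.56 in RA. These rises were 3.71 ± 0.0824 (adjusted p = 3.74e-08) and 3.86 ± 0.103 (adjusted p = 1.48e-10).

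Of the enzymes between retinol and retinal, Dhrs3 (ENSMUSG00000066026.7, chr4:144482730-144518112, plus strand), which acts in the direction of retinol, started highest and rose more than Rdh10. Its ΔG values were 5.69, 5.56 and 6.09 in het ES, 5.81, 6.00 and 5.73 in hom ES, 8.79, 8.75 and 8.81 in het RA and 8.60, 8.67 and 8.71 in hom RA. The ΔPG values were 6.53, 6.34 and 6.43 in het ES, 5.74, 6.30 and 6.17 in hom ES, 8.35, 8.44 and 8.46 in het RA and 8.39, 8.42 and 8.36 in hom RA. Every RA sample was above every ES sample of its line. The rise was 3.00 ± 0.111 (adjusted p = 6.67e-11) in ΔG het, 2.82 ± 0.0850 (adjusted p = 8.00e-15) in ΔG hom, 1.98 ± 0.0583 (adjusted p = 1.44e-07) in ΔPG het and 2.32 ± 0.119 (adjusted p = 2.39e-08) in ΔPG hom cells.

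Rdh10 (ENSMUSG00000025921.7, chr1:16095855-16123815, plus strand), which makes retinal from retinol, showed the smallest rise among the 7 in 3 of the 4 comparisons, Crabp1 rising less in ΔPG het. The ΔG samples were at 4.24, 4.62 and 4.48 (het ES), 4.23, 4.36 and 4.57 (hom ES), 5.72, 5.52 and 5.39 (het RA) and 5.40, 5.07 and 5.29 (hom RA). The ΔPG samples were at 4.37, 4.03 and 4.06 (het ES), 4.50, 4.52 and 4.25 (hom ES), 5.80, 5.71 and 5.56 (het RA) and 5.53, 5.36 and 5.37 (hom RA). Within a genotype no RA sample was as low as an ES sample. The differences were 1.10 ± 0.129 (adjusted p = 7.84e-06), 0.87 ± 0.133 (adjusted p = 2.56e-05), 1.53 ± 0.119 (adjusted p = 2.12e-05) and 1.00 ± 0.124 (adjusted p = 4.14e-05) in the order ΔG het, ΔG hom, ΔPG het, ΔPG hom. Over all genes the ΔPG het RA difference ran with GC content (Pearson r = -0.208 across genes, which are not independent). Its median was 0.45 in the tenth of genes lowest in GC and -0.26 in the highest. Rdh10 has the lowest exonic GC of the 9 (45.7%) and Crabp1 the highest (57.4%). Over the other ways of processing tried, the ΔPG het rise ranged from 1.27 to 1.64 for Rdh10 and from 0.59 to 1.24 for Crabp1.

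The retinal dehydrogenases, which make RA, responded least. Aldh1a2 (ENSMUSG00000013584.5, chr9:71063596-71144050, plus strand) was at 3.48, 3.27 and 3.72 in ΔPG het ES and 4.08, 4.05 and 4.22 in ΔPG het RA, a difference of 0.63 ± 0.140 (adjusted p = 0.00669) and its only call. With quantile normalization this difference was 0.21 and was not called (adjusted p = 0.277). The ΔPG hom samples were at 4.07, 3.78 and 3.53 against 4.15, 4.18 and 4.29 (0.41 ± 0.163, adjusted p = 0.0588), which did not overlap but stayed under the limit of 0.5. In ΔG het cells 4.11, 3.96 and 3.64 stood against 4.29, 4.25 and 4.52 (0.45 ± 0.142, adjusted p = 0.0185), also under the limit. The ΔG hom samples, 3.93, 3.79 and 3.87 in ES and 3.71, 4.05 and 4.00 in RA, overlapped, with a difference of 0.06 and a 95% interval from -0.23 to 0.35. In 2 groups the lack of a call rested on 1 library, since Aldh1a2 was called in ΔG het without ES replicate 1 (0.55, adjusted p = 0.00984) and in ΔPG hom without ES replicate 1 (0.55, adjusted p = 0.0231).

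Aldh1a3 (ENSMUSG00000015134.8, chr7:73535778-73572403, minus strand) was the lowest of the 9 genes with RA and was not called in any comparison. In ΔG it was at 3.34, 3.24 and 3.04 in het ES, 3.23, 3.35 and 3.23 in hom ES, 3.23, 2.85 and 2.96 in het RA and 2.92, 3.09 and 3.25 in hom RA. In ΔPG it was at 3.04, 3.21 and 2.80 in het ES, 3.19, 3.19 and 3.16 in hom ES, 2.71, 2.81 and 2.57 in het RA and 3.11, 2.93 and 2.70 in hom RA. ES and RA samples overlapped in 3 of the 4 comparisons, ΔPG hom being the exception. The differences were -0.19 (95% interval -0.50 to 0.12), -0.18 (-0.48 to 0.11), -0.32 (-0.67 to 0.03) and -0.26 (-0.62 to 0.10), with adjusted p from 0.115 to 0.309. Quantile normalization gave -0.55 to -0.67 and called Aldh1a3 lower in all 4 comparisons.

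**Figure D3:**
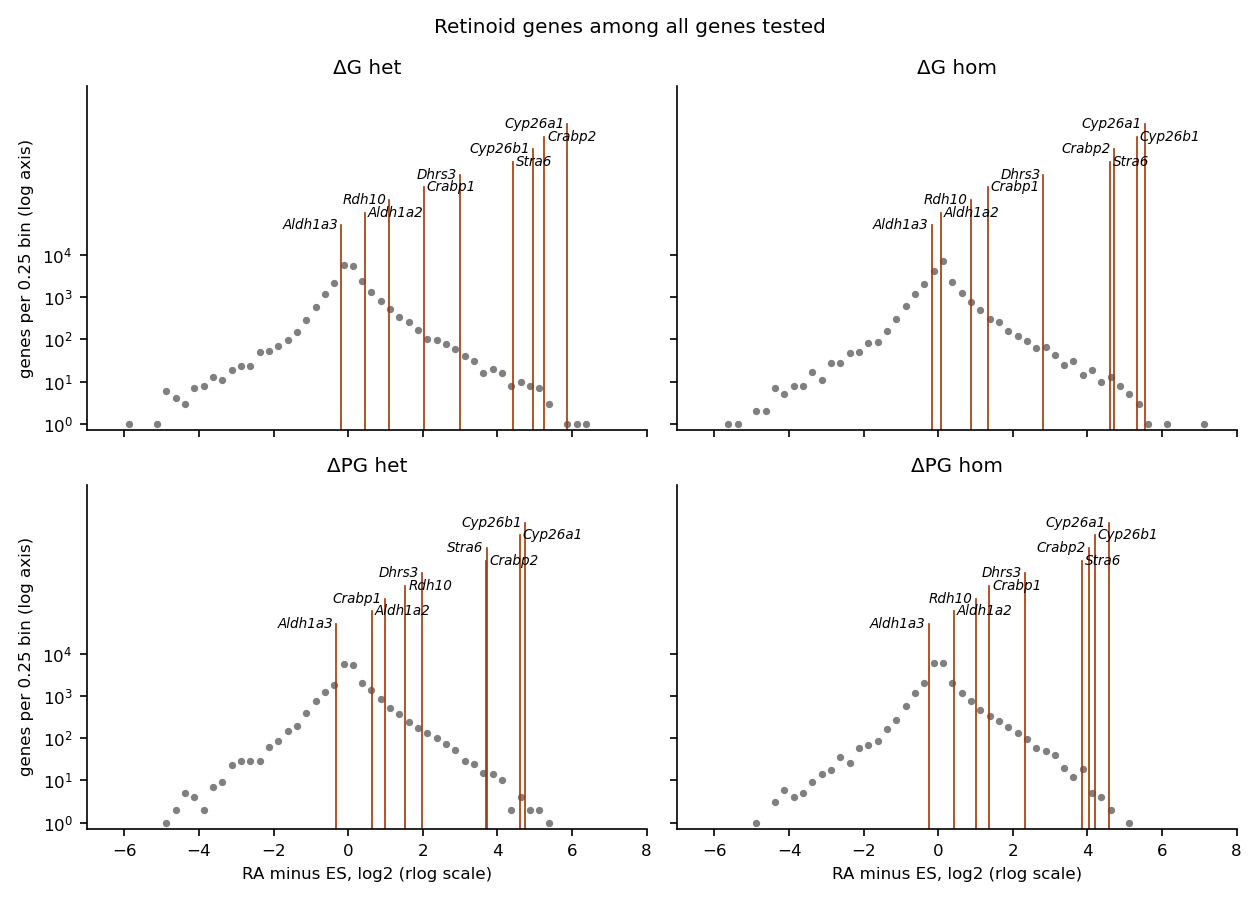
Grey points count the genes in each 0.25-wide bin of the RA minus ES difference (log2 on the rlog scale; vertical log axis) for 22048 genes in ΔG and 21979 in ΔPG, and orange lines mark the 9 retinoid genes at their own differences, with line height chosen only for legibility. Cyp26a1 ranks 3 from the highest in ΔG het, ΔG hom and ΔPG hom and 7 in ΔPG het, and Aldh1a3 lies in the bulk of all genes.

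Levels were compared between genes as rlog minus log2 of the exonic length in kilobases. In ES cells the order was led by Dhrs3 (4.23 in ΔG het, 4.29 in ΔG hom, 4.88 in ΔPG het and 4.52 in ΔPG hom) and then Crabp2 (3.68, 3.83, 4.39 and 4.49). Samples of these 2 genes overlapped in ΔPG hom and not in the other 3 groups. Crabp1 and Cyp26a1 held places 3 and 4 (3.36 to 4.05), overlapping each other except in ΔPG hom, and Aldh1a2, Rdh10 and Cyp26b1 followed (1.18 to 2.73). Stra6 and Aldh1a3 were the lowest, at 0.81 to 1.18. With RA the order began with Cyp26a1 (9.24, 9.02, 8.57 and 8.62), Crabp2 (8.93, 8.55, 8.09 and 8.53), Dhrs3 (6.84 to 7.23) and Cyp26b1 (5.92 to 6.49) in all 4 groups. Among these leading genes, neighbours in the order overlapped only for Cyp26a1 and Crabp2 in ΔPG hom. Stra6 and Crabp1 shared places 5 and 6 (4.72 to 5.56) and overlapped except in ΔG hom, and Rdh10, Aldh1a2 and Aldh1a3 held the last 3 places, Aldh1a3 at 0.49 to 0.88.

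For each member called in both RA comparisons of a line, the 3 genes with the smallest root mean square (RMS) difference between centred profiles over the 12 samples of that line were sought, among 11997 (ΔG) or 11904 (ΔPG) genes with a mean rlog of at least 3. The profile of Cyp26a1 was nearest to Gas1 (RMS 0.30 log2 units), Cyp26b1 (0.37) and Krt18 (0.38) in ΔG and to Pmp22 (0.16), Cyp26b1 (0.23) and Igfbp5 (0.24) in ΔPG. Cyp26b1 was nearest to Gas1 (0.17), Clu (0.21) and Krt18 (0.26) in ΔG and to Col12a1 (0.14), Krt18 (0.17) and Tagln (0.19) in ΔPG. Crabp2 was nearest to Lamb1 (0.17), Mmp2 (0.20) and Cyp1b1 (0.22) in ΔG and to Stra6 (0.16), Arg1 (0.16) and Car4 (0.17) in ΔPG. Stra6 itself was nearest to Peg3 (0.15), Meox1 (0.17) and Acta2 (0.17) in ΔG and to Amot (0.10), Dlk1 (0.10) and Arg1 (0.13) in ΔPG. Dhrs3 was nearest to Dusp6 (0.13), Fbn1 (0.13) and Tpm1 (0.14) in ΔG and to 1700017B05Rik (0.10), Sort1 (0.11) and Igf1r (0.13) in ΔPG. Rdh10 was nearest to Klhl5 (0.09), Spns2 (0.12) and Amigo1 (0.13) in ΔG and to Rnase4 (0.13), Gng12 (0.14) and Tpm4 (0.14) in ΔPG. Crabp1 was nearest to Hdac7 (0.16), Ecscr (0.17) and Ttc30b (0.18) in ΔPG. No neighbour of Dhrs3, Rdh10, Crabp2 or Stra6 was the same in both lines, while Krt18 was a neighbour of Cyp26b1, and Cyp26b1 of Cyp26a1, in both.

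Other genes of the pathway were counted in the same way, against the 16.5% to 18.0% of all genes called higher and the 11.3% to 13.6% called lower with RA. Of 36 other retinoid enzymes and carriers, 34 varied in ΔG and 33 in ΔPG. With RA, 10 were higher and 1 lower in ΔG het, 8 and 1 in ΔG hom, 10 and 5 in ΔPG het and 10 and 1 in ΔPG hom, with medians of 0.10, 0.18, 0.05 and 0.08. Cyp1b1, a cytochrome P450 that can oxidize retinol, led this list in both lines (5.27 and 5.03 in ΔG het and hom, and 4.10 and 4.28 in ΔPG). Ttr, the plasma carrier of the retinol-binding protein, rose by 2.39 and 2.76 in ΔG and by 3.09 and 2.07 in ΔPG. Adh1, an alcohol dehydrogenase, rose by 2.00 and 2.08 in ΔPG het and hom cells. Of the 6 RA and retinoid X receptor genes, 5 were higher and 1 lower in ΔG het, 4 and 1 in ΔG hom, and 2 and 1 in each ΔPG genotype. Rarb rose by 2.41 and 3.04 in ΔG and by 2.72 and 2.52 in ΔPG, Rxra rose by 2.34 and 2.28 and by 1.18 and 1.71, and Rarg was lower (-1.68 and -1.56, and -1.72 and -1.22). Of 9 other known RA target genes, 7 were higher and 1 lower in ΔG het, ΔG hom and ΔPG het and 8 and 1 in ΔPG hom, Hoxb1 being among the highest (2.81 to 3.36) and Cdx1 the one that fell (-3.55 to -2.61).

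Without RA, none of the 9 genes was called between hom and het cells. In ΔG ES 0 of 9 passed, against 0.984% of 22048 genes, and 0 had an unadjusted p under 0.05. Differences ranged from -0.28 (Cyp26b1) to 0.15 (Crabp2) and the genotypes overlapped for all 9. In ΔPG ES 0 of 9 passed, against 13.2% of 21979 genes, and 1 had an unadjusted p under 0.05. That gene was Dhrs3, at -0.36 ± 0.140 (adjusted p = 0.0933), whose groups did not overlap but whose difference was under the limit of 0.5. Some intervals, such as -0.79 to 0.22 for Cyp26b1 in ΔG and -0.11 to 0.72 for Aldh1a2 in ΔPG, still allow differences past that limit. The share of all genes with overlapping genotypes, or with an unadjusted p under 0.05, is not given here for either line. Over all genes the ΔPG ES difference ran with GC content (Pearson r = -0.705 across genes, which are not independent, with a median of 0.59 in the tenth of genes lowest in GC and -0.45 in the highest). The members span 45.7% (Rdh10) to 57.4% (Crabp1) exonic GC, and with the GC trend removed 0 of the 8 members that remained were called. Values still depended on the processing. Over all the alternatives tried, Cyp26b1 (0.08) ranged from -0.02 to 0.45 and Cyp26a1 (0.08) from -0.12 to 0.34 in ΔPG ES, never called. Their lowest adjusted p was 0.0140 and 0.0445, and that of Dhrs3 (-0.48 to -0.20) was 0.00492. At these values only the limit of 0.5 kept the genes from a call, so the lack of a call does not show equal levels.

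With RA, 1 of 9 genes was called between the ΔG genotypes, against 2.14% of all genes. Crabp1 was lower in hom cells by -0.81 ± 0.127 (adjusted p = 0.000239, groups apart), and leaving out any 1 of the 6 samples gave -0.90 to -0.76, called each time. Crabp2 (-0.38 ± 0.0526, adjusted p = 5.72e-05), Cyp26a1 (-0.22 ± 0.0429, adjusted p = 0.00223) and Aldh1a2 (-0.43 ± 0.141, adjusted p = 0.0672) also had an adjusted p under 0.1 and groups apart, with differences under 0.5. In all, 6 of 9 had an unadjusted p under 0.05. The others were Dhrs3 (-0.12, adjusted p = 0.225, groups apart) and Rdh10 (-0.29, adjusted p = 0.179, groups overlapping). For Stra6 (0.09, interval -0.06 to 0.23) and Cyp26b1 (0.07, interval -0.05 to 0.19) the genotypes overlapped. In ΔPG RA 0 of 9 were called, against 0.846% of all genes, with 3 at an unadjusted p under 0.05. These were Crabp2 at 0.44 ± 0.0510 (adjusted p = 0.00103), Cyp26b1 at -0.47 ± 0.0650 (adjusted p = 0.00347) and Rdh10 at -0.27 ± 0.0995 (adjusted p = 0.244), all with groups apart. Groups were also apart for Stra6 (0.13, adjusted p = 0.365) and Cyp26a1 (0.05, adjusted p = 0.530), which makes 5 of 9. For neither line is the share of all genes with groups apart, or with an unadjusted p under 0.05, given here. Crabp2 reached the limit without hom RA replicate 1 (0.50, adjusted p = 0.000957) and Cyp26b1 without hom RA replicate 2 (-0.52, adjusted p = 0.0166). Beside these values stand the lower endoderm and fibroblast-list sums of hom RA samples in both lines, the latter at 9.0 to 9.07 against 9.18 to 9.23 in ΔPG. Only 1 of the 7 fibroblast-list genes was called in each line, Col1a2 in ΔG (-1.41) and Col3a1 in ΔPG (-0.67). The medians of that list were -0.17 and -0.00, so its sums do not show a shift of the whole list. Of the 10 endoderm genes, 4 were called lower in ΔG and 5 in ΔPG. Endoderm sums were also lower in hom ES samples, at 8.83 to 8.98 against 9.24 to 9.32 in ΔG and 9.28 to 9.35 against 9.67 to 9.74 in ΔPG. The part of these differences in the members' values was not tested.

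**Figure D4:**
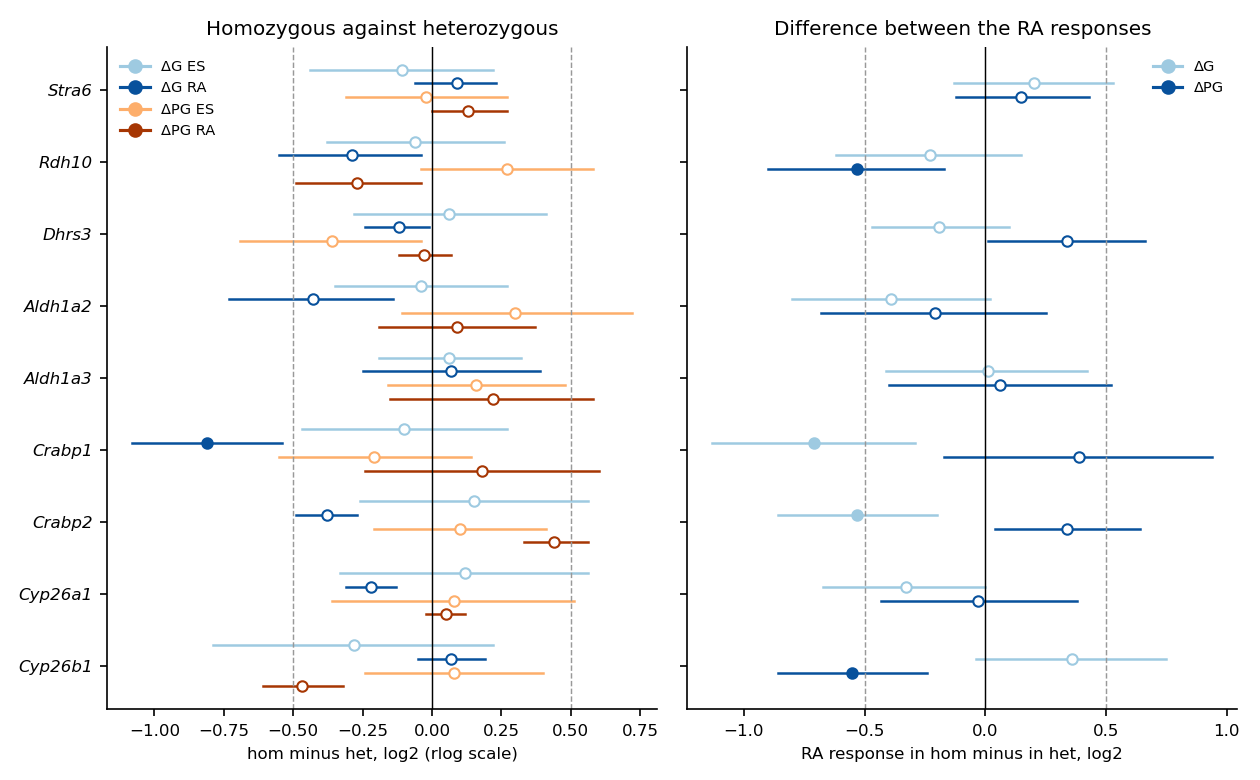
Left, difference between hom and het samples (log2 on the rlog scale) with its 95% confidence interval in 4 comparisons of 3 against 3 samples. Right, RA response in hom minus RA response in het cells, from all 12 samples of a line, with filled points called and dashed lines at 0.5 on either side of 0. The called points are Crabp1 in ΔG RA on the left (-0.81), and Crabp1 (-0.71) and Crabp2 (-0.53) in ΔG and Cyp26b1 (-0.55) and Rdh10 (-0.53) in ΔPG on the right.

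Whether the RA response itself differed between genotypes was tested as an interaction. In ΔG 2 of 9 genes were called, against 2.38% of all genes. Crabp1 rose less in hom than in het cells, by -0.71 ± 0.204 (adjusted p = 0.0507), and Crabp2 likewise by -0.53 ± 0.162 (adjusted p = 0.0671). When each of the 12 libraries was left out in turn, Crabp1 stayed called in 5 and Crabp2 in 3 cases, with values from -0.86 to -0.60 and from -0.68 to -0.34. Both calls were lost without het ES replicate 1, het RA replicate 1, het RA replicate 2, hom RA replicate 1 or hom RA replicate 2. Crabp1 alone was lost without het ES replicate 3 or hom ES replicate 1, and Crabp2 alone without hom ES replicate 2, hom ES replicate 3, het RA replicate 3 or hom RA replicate 3. Crabp2 moved furthest without het ES replicate 1, its lowest ES sample at 3.70 (-0.34, adjusted p = 0.203). Cyp26a1, at -0.33 ± 0.164 (adjusted p = 0.344) and not called, was called without het ES replicate 3 (-0.54, adjusted p = 0.0193).

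In ΔPG 2 of 9 were called, against 13.9% of all genes, and the ΔPG ES samples with the GC trend described above enter this test. The RA response of Cyp26b1 was lower in hom cells by -0.55 ± 0.144 (adjusted p = 0.0116) and that of Rdh10 by -0.53 ± 0.169 (adjusted p = 0.0324). With the GC trend removed Cyp26b1 was at -0.92 (adjusted p = 2.37e-05) and Rdh10 at -0.35 (adjusted p = 0.169), no longer called. Leaving out each library in turn kept the call of Cyp26b1 in 9 of 12 cases (-0.61 to -0.44) and that of Rdh10 in 7 of 12 (-0.64 to -0.48). The losses came without het ES replicate 1, hom ES replicate 3 and hom RA replicate 1 for Cyp26b1, and without het ES replicate 2, het ES replicate 3, hom ES replicate 1, hom ES replicate 2 and het RA replicate 1 for Rdh10. Crabp2 stood at 0.34 ± 0.140 (adjusted p = 0.0995) and Crabp1 at 0.39 ± 0.259 (adjusted p = 0.353) in ΔPG, neither of them called, and Crabp1 was called without het RA replicate 1 (0.59, adjusted p = 0.0866).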

How the data were processed

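RNA-seq of 24 samples (8 groups of 3) was used. The authors prepared stranded, ribosomal RNA-depleted libraries, aligned the reads to NCBI37/mm9 with TopHat2 2.1.0, removed duplicates with Picard, counted reads per gene symbol on the reverse strand with HTSeq 0.6.0 and GENCODE models, and transformed the counts with DESeq2 1.14.1. The deposited rlog values are on a log2 scale, with a separate table for each line. Whether the transformation knew the groups is not given in the sources used here. The tables hold no counts, so the depth of the samples cannot be read from them and no counting error is stated.

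Samples were grouped by the labels. Each comparison was made with limma 3.58.1 in R 4.3.3 (lmFit, then eBayes with trend) on its 6 samples, or on the 12 of a line for an interaction, over all genes that varied (22048 in ΔG, 21979 in ΔPG), and p-values were adjusted over all of them. An exact permutation test of 3 against 3 samples cannot go below p = 0.1 and was not used. The study's methods call the samples of a group biological replicates without saying how they were separated, so p-values measure the spread between these samples, which may be technical. Exonic length and GC content came from GENCODE vM1 on NCBIM37, as did the gene starts searched for repeats (Python 3.11.15, figures with matplotlib 3.10.9). The GC trend was removed by a lowess curve per sample over genes with a mean rlog of at least 3. The fits were tested on simulated data. Same-numbered replicates did not deviate together. No 2 columns were identical.

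The 9 genes were named in every comparison, and of each other list at most the 3 called genes with the largest RA difference in het cells of a line. Members and lists were chosen with earlier results of these data known. Other limits, normalizations, a replicate block and leaving out each replicate were alternatives. A few values that this rule would name are not reported here. The RIP-seq, 4C-seq and Capture-C experiments were not used here.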

Additional observations from a re-analysis of the deposited data

Results flagged for a closer look

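The RA response of 4 genes was called as different between genotypes in the interaction test. These were 2 of 9 in ΔG, against 2.38% of all genes, and 2 of 9 in ΔPG, against 13.9%. In ΔG the response of Crabp1 was lower in hom than in het cells by -0.71 and that of Crabp2 by -0.53, and in ΔPG that of Cyp26b1 was lower by -0.55 and that of Rdh10 by -0.53. Each of these calls was lost when certain single libraries were left out, and none passed an adjusted p under 0.05 together with a fold over 1.5. Rdh10 was also not called with the GC trend removed (-0.35, adjusted p = 0.169). The 4 calls were not equally stable. Under 20 alternatives Cyp26b1 was called in 16, Crabp1 in 12, Rdh10 in 12 and Crabp2 in 9. Cyp26b1 ranged from -0.92 to -0.44 with an adjusted p of at most 0.0355, so its losses came from the limit on size.

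Crabp2 and Cyp26a1 had every hom RA sample on one side of every het RA sample in ΔG and on the other side in ΔPG. The share of all genes with such an order is not given here. Crabp2 was at -0.38 (hom minus het) in ΔG RA and 0.44 in ΔPG RA, and Cyp26a1 at -0.22 and 0.05. The ΔPG difference of Cyp26a1 had an interval of -0.02 to 0.12 and did not pass the limma test (adjusted p = 0.530). The difference between the lines was not tested, since the 2 tables were normalized separately.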

How the results depend on the processing

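Of the 90 member results (9 genes in 10 comparisons), 34 were called, and 29 of these were called under every alternative that gave a value. All 34 kept their sign. Of the 56 not called, 46 were called under no alternative and 10 under some. The 7 genes called with RA in all 4 groups stayed called under every alternative.

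The interaction calls were less stable. With an adjusted p under 0.05 and a fold over 1.5, 0 members were called in ΔG and 0 in ΔPG, against 2 and 2. Without a variance trend 1 was called in ΔG. With the GC trend removed 1 was called in ΔPG, also with the replicate block added (1). Leaving out 1 replicate at a time gave 0 to 2 calls in ΔG, 1 to 2 in ΔPG, and 0 to 1 for hom against het in ΔPG RA. The ΔPG interaction of Crabp1, 0.39, became -0.01 with the GC trend removed, with and without the replicate block (adjusted p = 0.990), and was not called in either fit.

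Over all genes, the hom against het calls went from 217 to 44 with the replicate block and 117 with the stricter limits in ΔG ES, from 471 to 275 with these limits in ΔG RA, from 186 to 112 with the replicate block in ΔPG RA, and from 2893 to 865 with the GC trend removed in ΔPG ES. Interaction calls went from 524 to 268 (stricter limits, ΔG) and from 3056 to 1122 (GC trend removed, ΔPG). The cause was not tested. Replicate numbers did not pair the samples (correlations of deviations -0.0255 to 0.0855), and the replicate block left every count of called members as it was. Quantile normalization moved the share of higher among called genes from 60.2% to 47.9% (RA, ΔG het), 58.4% to 47.1% (ΔG hom), 57.0% to 48.7% (ΔPG het), 59.4% to 49.2% (ΔPG hom) and 35.9% to 47.3% (hom against het, ΔG ES). Low rlog values limit Aldh1a2, Aldh1a3 and the ES level of Stra6, Crabp1 and Cyp26b1 most. Aldh1a3 had no value in ΔPG once genes with a mean rlog under 3 were left out.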

Other observations

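Among the 36 other retinoid genes and 6 receptors, a few were called between genotypes, and they are named here after their values were seen. In ΔG RA, Rxra (-0.54, adjusted p = 0.000150), Rxrg (-0.59, adjusted p = 0.00729) and Rdh1 (-0.78, adjusted p = 0.000511) were lower in hom cells and Rdh5 (0.50, adjusted p = 0.0433) was higher. In ΔPG RA, Ttr was lower in hom cells (-0.94, adjusted p = 0.00458), and no receptor was called. In ΔPG ES, Rxrb (-0.61), Retsat (-0.59) and Rdh13 (-0.51) were lower in hom cells, in the comparison that ran with GC content.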
